A study of Mus musculus with 18 samples.

Results

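Chromatin accessibility was examined around 3 genes on mouse chromosome 2 grouped here as the interleukin-1 cluster, Il1a, Il1b and Il1rn. Il1a and Il1b are neighbours, whereas Il1rn lies at a separate, distant locus of that chromosome. A peak was a member when it overlapped one of these genes extended by 25 kb on both sides, with gene bounds from the GENCODE M1 annotation of the mm9 build. This gave 65 of the 194284 peaks, 23 around Il1a, 22 around Il1b and 20 around Il1rn, and no peak fell in more than 1 of these windows. ATAC-seq, in which a transposase cuts and tags open DNA, had been run on bone marrow-derived macrophages (BMDMs) grown from 3 C57BL/6J male mice, 12 weeks old and lacking Il10 (Il10-/-). Cells were left unstimulated (Unstim), given the BET inhibitor (+)-JQ1 at 500 nM (JQ1), given recombinant IL-10 at 10 ng/mL (IL10), stimulated with lipopolysaccharide at 50 ng/mL (LPS), or given (+)-JQ1 or IL-10 and then LPS (LPS + (+)-JQ1, LPS + IL-10). The first agent or its control was present for 12 h before 4 h of LPS or PBS, 16 h in all. Each of the 6 conditions had 3 libraries, described as biological replicates. All 18 libraries, controls included, came from cells without a functional Il10 gene, and wild-type cells were not analysed here.

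The IL-1 family signals early in inflammation. Il1a and Il1b encode the agonists IL-1α and IL-1β, which bind the same receptor and activate NF-κB and MAP kinase signalling. IL-1β is made as an inactive precursor that caspase-1 cleaves once an inflammasome has assembled, whereas the precursor of IL-1α is already active and can be released by damaged cells. Il1rn encodes the receptor antagonist, which occupies the IL-1 receptor without signalling and so limits the agonists. LPS, the TLR4 ligand of Gram-negative bacteria, induces all of them in macrophages. (+)-JQ1 displaces BET proteins, which read acetylated histones, from chromatin, and IL-10 acts through STAT3 as an anti-inflammatory cytokine.

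The genes lie at chr2:129125346-129135708 (Il1a, minus strand), chr2:129190306-129196875 (Il1b, minus strand) and chr2:24192373-24207014 (Il1rn, plus strand). Peaks are named here by the nearest of these genes and by the distance in kb from its annotated transcription start site (TSS) to the peak's centre, with positive values in the direction of transcription. The authors' promoter class (1000 bases before to 100 after a TSS) held 18 of the 65 peaks and 47 were distal. Other genes share the windows. Il1a +13.1 kb covered the start sites of Ckap2l and of the non-coding gene Gm14023, the body of Ckap2l spanned Il1a +14.6 kb to Il1a +34.1 kb, and Gm14023 overlapped Il1a itself. The antisense gene Gm14047 overlapped Il1b +0.9 kb and Il1b -2.2 kb, the pseudogene Gm14039 lay at Il1b +8.0 kb, and the start of Psd4 at Il1rn +30.8 kb. ATAC-seq fragments carry no strand, so a peak shared by genes cannot be split between them.

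Libraries held between 12020526 and 25908198 counts in peaks, of which 2999 to 12450 fell in member peaks. The scaling factors ran from 1.04 to 1.24 in Unstim and from 0.896 to 1.05 in the other conditions. The promoters of all 8 macrophage markers searched carried a peak, with a summed accessibility of 118.8 to 238 CPM (counts per 1000000 counts in peaks, after TMM scaling), lowest in Unstim (118.8 to 184.5) and highest in JQ1 (222 to 238). Of 5 T cell markers only Lck had a promoter peak, while Cd3e, Cd3d, Cd4 and Cd8a had none. Promoter peaks were present at 3 of 4 B cell, 4 of 6 neutrophil, 4 of 4 dendritic cell, 4 of 4 epithelial and 2 of 4 fibroblast markers. The summed neutrophil marker level ran from 28.8 to 54.9 CPM and was highest in IL10 (50.3 to 54.9) and LPS + IL-10 (46.9 to 51.7). The part of these levels in the results was not tested. In bulk libraries, a change in the share of cells with an open site and a change within each cell cannot be told apart.

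The sequences that carry the main results are shown from the mm9 genome, 5′ to 3′ on the strand of the gene. They are the 250 bases before the start site of each gene, the central 300 bases of the peak away from the gene's own TSS with the largest called LPS response near each gene, and those of the Il1b upstream peak with the highest mean level. Capitals mark matches to 6 motifs searched on both strands: AP-1 (TGANTCA), κB, the ISRE core (GAAANNGAA), the STAT element GAS (TTCNNNGAA), C/EBP (TTGCNNAA) and the PU.1 core (GAGGAAGT).
Il1a promoter, chr2:129135709-129135958, minus strand: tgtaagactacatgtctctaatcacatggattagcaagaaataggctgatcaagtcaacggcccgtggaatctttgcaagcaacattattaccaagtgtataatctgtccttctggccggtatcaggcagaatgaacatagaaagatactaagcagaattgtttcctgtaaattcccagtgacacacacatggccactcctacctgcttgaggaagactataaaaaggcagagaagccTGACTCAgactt
Il1b promoter, chr2:129196876-129197125, minus strand: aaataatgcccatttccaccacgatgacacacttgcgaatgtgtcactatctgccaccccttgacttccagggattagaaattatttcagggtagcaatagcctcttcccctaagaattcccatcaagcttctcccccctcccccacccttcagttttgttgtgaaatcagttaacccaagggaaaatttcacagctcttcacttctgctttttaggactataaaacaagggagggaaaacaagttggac
Il1rn promoter, chr2:24192123-24192372, plus strand: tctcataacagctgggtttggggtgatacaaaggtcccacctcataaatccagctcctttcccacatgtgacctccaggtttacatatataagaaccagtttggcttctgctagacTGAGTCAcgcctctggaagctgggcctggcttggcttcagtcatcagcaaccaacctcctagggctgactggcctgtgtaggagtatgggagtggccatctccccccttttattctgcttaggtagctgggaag
Il1a +7.3 kb, chr2:129128293-129128592, minus strand: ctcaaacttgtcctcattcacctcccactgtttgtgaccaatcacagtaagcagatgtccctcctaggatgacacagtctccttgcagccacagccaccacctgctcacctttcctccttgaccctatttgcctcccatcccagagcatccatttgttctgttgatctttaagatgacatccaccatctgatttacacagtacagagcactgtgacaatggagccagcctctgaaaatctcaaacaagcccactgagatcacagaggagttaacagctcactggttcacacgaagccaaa
Il1b +8.0 kb, chr2:129188686-129188985, minus strand: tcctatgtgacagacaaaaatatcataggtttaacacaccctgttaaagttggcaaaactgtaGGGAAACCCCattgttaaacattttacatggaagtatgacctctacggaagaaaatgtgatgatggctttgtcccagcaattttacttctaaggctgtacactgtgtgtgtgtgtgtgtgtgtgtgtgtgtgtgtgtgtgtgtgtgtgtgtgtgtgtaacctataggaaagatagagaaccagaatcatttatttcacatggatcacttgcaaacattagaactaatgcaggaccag
Il1b -2.2 kb, chr2:129198964-129199263, minus strand: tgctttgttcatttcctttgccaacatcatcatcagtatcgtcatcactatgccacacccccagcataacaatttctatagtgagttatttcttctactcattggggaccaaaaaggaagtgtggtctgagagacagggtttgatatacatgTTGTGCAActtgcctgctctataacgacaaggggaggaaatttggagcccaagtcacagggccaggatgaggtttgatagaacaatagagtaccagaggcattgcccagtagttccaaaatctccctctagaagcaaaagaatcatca
Il1rn +15.9 kb, chr2:24208152-24208451, plus strand: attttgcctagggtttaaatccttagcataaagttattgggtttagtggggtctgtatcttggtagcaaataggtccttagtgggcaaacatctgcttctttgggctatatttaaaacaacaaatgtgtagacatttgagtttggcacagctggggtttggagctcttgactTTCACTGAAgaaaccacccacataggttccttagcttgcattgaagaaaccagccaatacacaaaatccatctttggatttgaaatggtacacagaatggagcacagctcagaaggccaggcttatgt

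Both the Il1a and the Il1rn promoter window held 1 AP-1 match, as did 6.0% of the 22367 windows of the same length before protein-coding genes. The Il1b promoter window and the centre of Il1a +7.3 kb held none of the 6 motifs. Il1b +8.0 kb held 1 κB match (3.58% of the 300-base centres of all peaks), Il1b -2.2 kb 1 C/EBP match (12.5%) and Il1rn +15.9 kb 1 GAS match (8.74%). Over whole peaks, GAS letters occurred in 30 of the 65 members (46.2%, against 31.1% of all peaks), AP-1 in 28 (43.1%, against 34.9%), C/EBP in 28 (43.1%, against 39.1%), the ISRE core in 24 (36.9%, against 33.6%), κB in 9 (13.8%, against 13.6%) and the PU.1 core in 8 (12.3%, against 12.7%). Members were somewhat wider than all peaks (median width 1036 against 957 bases), which gives more room for a match. Per kb of peak, GAS occurred 0.468 times in members and 0.312 times in all peaks, and AP-1 0.468 and 0.363 times. These matches are letters in a window, not bound sites.

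LPS opened chromatin around both agonist genes at most of their peaks and around the antagonist gene at fewer; the difference between the windows was not tested. Summed over the 23 peaks of the Il1a window, accessibility in Unstim libraries was 68.3, 65.4 and 77.7 CPM and in LPS libraries 237, 201 and 194 CPM, a log2 ratio of means of 1.58. The 22 peaks of the Il1b window summed to 57.4, 60.6 and 67.0 CPM in Unstim and 210, 200 and 193 CPM with LPS (log2 ratio 1.70). The 20 peaks of the Il1rn window went from 75.0, 78.0 and 83.2 CPM to 124, 119 and 123 CPM (log2 ratio 0.63). In each window the LPS and Unstim libraries did not overlap. Peak by peak, edgeR's quasi-likelihood test over all peaks (Benjamini-Hochberg FDR under 0.05 and an absolute log2 fold-change above 0.5, the call rule throughout) called 41 of the 65 members higher with LPS, against 11.7% of all 194230 peaks tested. The calls comprised 20 of 23 peaks at Il1a, 15 of 22 at Il1b and 6 of 20 at Il1rn. No member was called lower by edgeR or by DESeq2, 1 had an unadjusted p under 0.05 in that direction, and 10.2% of all peaks were called lower. The median log2 fold-change was 1.04 over the members and -0.03 over all peaks. All 41 calls had the same direction within each sequencing lane and in each of the 3 same-numbered pairs of libraries. The calls were made on these same libraries, so such agreement, here and below, largely follows from the call and is not separate support.

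**Figure D1:**
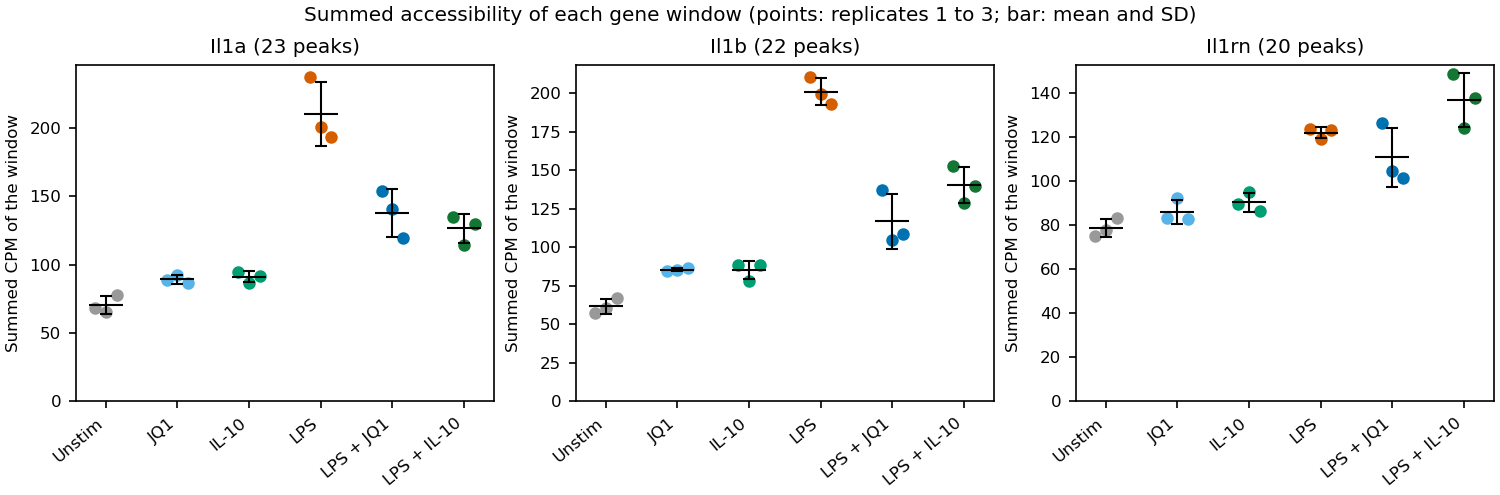
Summed accessibility (CPM, axis from 0) over the peaks of the Il1a, Il1b and Il1rn windows, by condition; points are the 3 libraries, bars the mean and SD. LPS libraries sit above Unstim in each window, and LPS + (+)-JQ1 and LPS + IL-10 lie below LPS at Il1a and Il1b, whereas at Il1rn LPS + IL-10 lies between 124 and 149 CPM.

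The Il1b body and the region just past its end gave the largest LPS responses of the members. Il1b +8.0 kb, at chr2:129188319-129189354 beyond the gene's end, had 0.669, 0.165 and 0.657 CPM in Unstim (10, 3 and 12 counts) and 17.7, 16.2 and 15.4 CPM with LPS (385, 325 and 258 counts). The LPS level was 33.3-fold higher (log2 fold-change 5.06 ± 0.27 SE, 95% interval 4.47 to 5.64, FDR = 2.1e-31), and the low Unstim counts set the width of that interval. Il1b +6.5 kb, at chr2:129189793-129191003 over the gene's end, with UTR, coding and intronic sequence, went from 1.54, 1.04 and 0.493 CPM to 31.1, 28.6 and 25.8 CPM (4.83 ± 0.24, FDR = 4.6e-34). Within the gene, Il1b +4.1 kb, which covers a further annotated Il1b start, and Il1b +3.1 kb rose by 3.29 ± 0.25 and 3.28 ± 0.23 on the log2 scale. The promoter peak Il1b +0.9 kb, at chr2:129194399-129197486 over the TSS, UTR, coding and intronic sequence, was at 5.69, 5.60 and 5.81 CPM in Unstim and at 39.2, 37.6 and 29.5 CPM with LPS, a 6.22-fold rise (2.64 ± 0.15, FDR = 8.3e-29). Upstream, Il1b -2.2 kb was already open in Unstim at 14.9, 17.1 and 21.5 CPM and reached 31.0, 29.3 and 29.2 CPM with LPS (0.74 ± 0.14, FDR = 1.4e-05), a call that was lost with loess scaling (0.40). The groups did not overlap at any of these 6 peaks. They were named by place, level or size of a called change, so this separation adds no support.

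At Il1a the LPS response also centred on the gene body and the stretch beyond its end. Il1a +7.3 kb, an exonic and intronic peak at chr2:129128166-129128721, had 0.402, 0.220 and 0.493 CPM in Unstim and 5.24, 4.49 and 3.88 CPM with LPS (3.60 ± 0.39, FDR = 4.7e-13). Il1a +11.3 kb, at chr2:129123886-129124849 past the gene's end, went from 1.00, 0.769 and 1.31 CPM to 13.2, 10.3 and 9.20 CPM (3.40 ± 0.24, FDR = 9.6e-23). Further on, Il1a +14.6 kb and Il1a +16.8 kb, within Ckap2l, rose by 2.52 ± 0.28 and 2.37 ± 0.30, the latter by 3.05 without replicate 1 of Unstim. The promoter peak Il1a +0.4 kb, at chr2:129132881-129137764, held 6.83, 7.91 and 6.19 CPM in Unstim and 30.0, 23.9 and 23.9 CPM with LPS, a 3.71-fold rise (1.89 ± 0.15, FDR = 1.8e-19). Upstream, Il1a -6.1 kb at chr2:129141387-129142235 went from 0.736, 0.769 and 0.877 CPM to 9.78, 7.24 and 5.02 CPM (3.20 ± 0.28, FDR = 1.5e-17). It was the upstream peak with the largest response of the 18 upstream members at Il1a and Il1b. The shared promoter of Ckap2l and Gm14023 (Il1a +13.1 kb) rose from 21.1, 23.1 and 29.9 CPM to 56.4, 47.2 and 49.0 CPM (1.04 ± 0.14, FDR = 7.0e-10).

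At Il1rn, 1 of the 6 calls was over the TSS, 3 over the gene body, 1 downstream and 1 upstream (Il1rn -24.6 kb, 0.51 ± 0.15, FDR = 0.0063, named to complete the 6 after its value was seen). The promoter peak Il1rn -0.8 kb, at chr2:24190466-24192662, had 7.43, 7.03 and 7.56 CPM in Unstim and 14.3, 12.9 and 11.4 CPM with LPS, a 1.76-fold rise (0.81 ± 0.15, FDR = 1.1e-05). The intronic Il1rn +5.6 kb went from 9.70, 10.2 and 12.2 CPM to 26.2, 24.4 and 25.2 CPM (1.24 ± 0.14, FDR = 4.1e-12). Il1rn +10.3 kb, which covers a further annotated Il1rn start, rose by 0.73 ± 0.14 (FDR = 2.1e-05), a call lost with loess scaling (0.44). Il1rn +15.9 kb, at chr2:24206702-24209903 from the 3′ UTR outward, had 5.69, 4.18 and 3.45 CPM in Unstim and 10.3, 10.1 and 12.0 CPM with LPS (1.30 ± 0.18, FDR = 1.9e-09). The call at Il1rn +18.7 kb (0.74 ± 0.26, FDR = 0.026) did not survive leaving out any 1 replicate number or scaling by total counts. The largest called rise at Il1rn was smaller than the rise at either agonist promoter, while a test of that difference between peaks was not made.

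**Figure D2:**
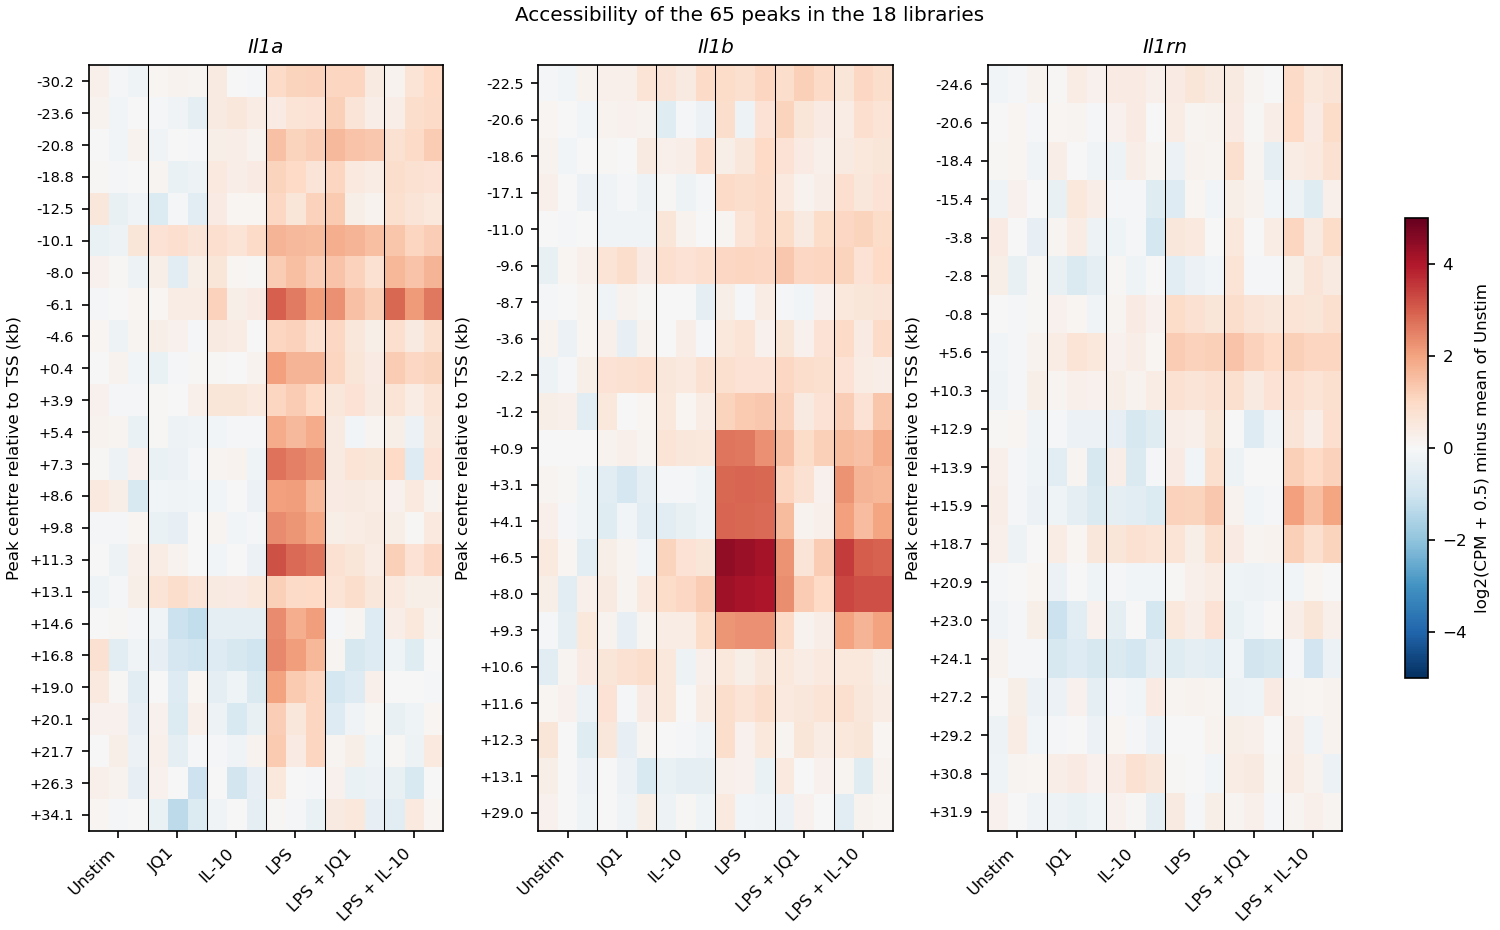
Accessibility of each of the 65 peaks (rows, ordered by distance in kb of the peak's centre from the TSS of the nearest gene) in each of the 18 libraries (columns, by condition), in colour as log2(CPM + 0.5) minus the mean of the 3 Unstim libraries. The peaks strongest in the LPS columns lie mainly from the TSS to beyond the end of Il1a and Il1b, with the upstream Il1a -6.1 kb also among them. Il1b +8.0 kb goes from at most 0.669 CPM in Unstim to at least 15.4 CPM with LPS.

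(+)-JQ1 before LPS lowered accessibility at peaks over the promoters, bodies and 3′ sides of both agonist genes. Relative to LPS, 21 of 65 members were called lower with LPS + (+)-JQ1, against 3.48% of all peaks, and none higher, against 1.74%. In the higher direction 1 member had an unadjusted p under 0.05, and DESeq2, which gave no adjusted p to 15 of the 65, called none. The lower calls were 13 of 23 at Il1a, 7 of 22 at Il1b and 1 of 20 at Il1rn, and all 21 had the same direction in both lanes and in each same-numbered pair of libraries. The LPS libraries of this comparison are those set against Unstim above. At Il1b +6.5 kb the LPS + (+)-JQ1 libraries held 6.46, 1.80 and 2.99 CPM against 31.1, 28.6 and 25.8 CPM with LPS, an 8.07-fold lower level (-3.01 ± 0.20, FDR = 1.0e-23). The level was 7.07-fold lower at Il1b +8.0 kb (4.30, 1.80 and 1.43 CPM, -2.82 ± 0.21). At the Il1b promoter peak, Il1b +0.9 kb, it was 16.4, 11.2 and 13.5 CPM, 2.61-fold below LPS (-1.38 ± 0.14, FDR = 2.1e-13). Replicate 1 of LPS + (+)-JQ1 stood above the other two libraries at the Il1b body, and without it the count of lower calls was again 21.

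At Il1a, (+)-JQ1 before LPS had its largest difference at Il1a +16.8 kb, with 1.31, 0.437 and 0.543 CPM against 8.04, 6.39 and 4.66 CPM in LPS (-3.17 ± 0.32, FDR = 3.0e-13). Il1a +14.6 kb, Il1a +11.3 kb and Il1a +7.3 kb fell by 2.81 ± 0.29, 2.65 ± 0.22 and 2.50 ± 0.34. The promoter peak Il1a +0.4 kb stood at 15.2, 10.7 and 9.38 CPM, 2.24-fold below LPS (-1.16 ± 0.15, FDR = 1.3e-09). Il1a -6.1 kb was at 5.84, 3.06 and 2.48 CPM, overlapping the LPS libraries (9.78, 7.24 and 5.02 CPM). Its difference (-1.03 ± 0.22, FDR = 0.00083) was past the threshold in edgeR but not with DESeq2 (-0.97) or without the replicates numbered 2 (-0.93). The Ckap2l and Gm14023 promoter was not called (-0.32 ± 0.13, FDR = 0.16).

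Position along the agonist genes went with the response to (+)-JQ1. All 8 peaks over the bodies of Il1a and Il1b were called lower (median log2 fold-change -2.28), as were both promoter peaks and 8 of 17 downstream peaks, but 2 of 18 upstream peaks (median -0.06). LPS had raised 14 of those 18 upstream peaks, with a median log2 fold-change of 1.05. It had raised 11 of the 17 downstream peaks (median 1.36), both promoter peaks (2.26) and all 8 body peaks (2.88). The classes that fell most with (+)-JQ1 had thus also risen most with LPS, and position was not separated from the size of that rise. At Il1b -2.2 kb LPS + (+)-JQ1 libraries held 37.0, 32.7 and 31.1 CPM against 31.0, 29.3 and 29.2 CPM with LPS, and the difference of 0.17 ± 0.13 had a 95% interval of -0.12 to 0.46. The position classes were drawn up after these values had been seen, and a difference between classes was not tested. The body class includes Il1b +4.1 kb and Il1b +3.1 kb, which are in the authors' promoter class.

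**Figure D3:**
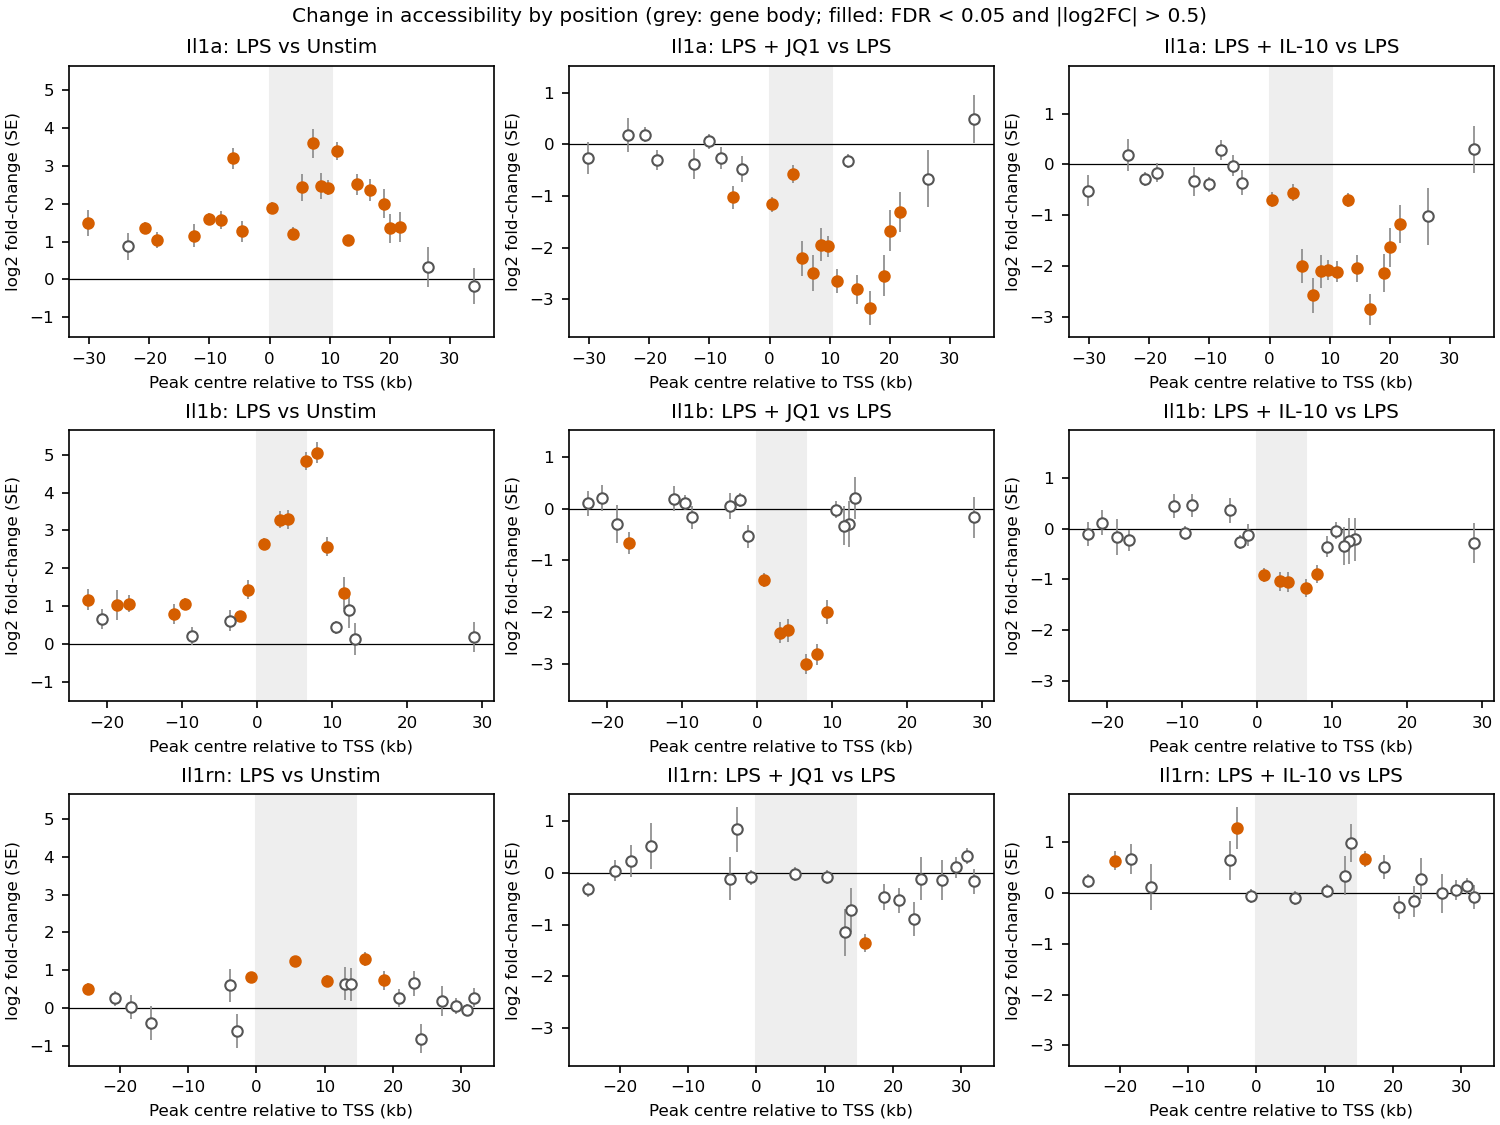
Log2 fold-change (points, with SE) of each peak against the distance in kb of its centre from the TSS, for LPS vs Unstim, LPS + (+)-JQ1 vs LPS and LPS + IL-10 vs LPS (columns) at the 3 genes (rows); gene bodies are grey and called peaks filled. Filled points below 0 in the LPS + (+)-JQ1 panels lie mainly over and downstream of Il1a and Il1b, and Il1rn has 1.

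IL-10 before LPS also lowered accessibility over the agonist genes, with log2 fold-changes down to -2.85 at Il1a and -1.17 at Il1b. This comparison shares its LPS libraries with the previous one. With LPS + IL-10, 18 of 65 members were called lower than LPS, against 4.52% of all peaks, and 3, all at Il1rn, were called higher, a share near the 4.26% of all peaks. The lower calls were 13 of 23 at Il1a and 5 of 22 at Il1b. At Il1rn edgeR and DESeq2 called none of 20 lower, with no unadjusted p under 0.05 in that direction. All 21 calls kept their direction in both lanes and all 3 same-numbered pairs. Il1a +16.8 kb held 0.914, 0.579 and 1.10 CPM with LPS + IL-10 (-2.85 ± 0.31 against LPS, FDR = 2.1e-12). Il1a +7.3 kb held 1.22, 0.0579 and 0.919 CPM (24, 1 and 20 counts), a log2 fold-change of -2.58 ± 0.34 (FDR = 5.2e-09). The Il1a promoter peak was at 17.6, 14.9 and 15.6 CPM, 1.62-fold below LPS (-0.69 ± 0.14, FDR = 0.00018). The Ckap2l and Gm14023 promoter fell by 0.70 ± 0.13 (FDR = 6.8e-05). Il1a -6.1 kb overlapped LPS (8.99, 5.16 and 7.62 CPM), with a difference of -0.02 and a 95% interval of -0.48 to 0.43.

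At Il1b, the level after IL-10 and LPS was 16.0, 11.4 and 10.7 CPM at Il1b +6.5 kb, 2.25-fold below LPS (-1.17 ± 0.17, FDR = 7.5e-08). The promoter peak Il1b +0.9 kb stood at 17.9, 16.7 and 21.9 CPM, 1.88-fold lower (-0.91 ± 0.14, FDR = 1.6e-07). Il1b +4.1 kb and Il1b +3.1 kb fell by 1.05 ± 0.20 and 1.04 ± 0.18, and Il1b +8.0 kb by 0.90 ± 0.18, a call that DESeq2 did not make. Il1b -2.2 kb was not called (-0.26 ± 0.14, FDR = 0.24). As with (+)-JQ1, all 8 body peaks and both promoter peaks of the agonist genes were called lower, and 8 of 17 downstream peaks. Of the 18 upstream peaks edgeR and DESeq2 called none lower, and 2 had an unadjusted p under 0.05 in that direction.

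At the antagonist gene, where 6 of 20 peaks had risen with LPS, 1 was called lower with LPS + (+)-JQ1; whether the treatments acted differently on the 3 windows was not tested. At the promoter peak Il1rn -0.8 kb, LPS, LPS + (+)-JQ1 (13.8, 11.8 and 11.1 CPM) and LPS + IL-10 (12.1, 11.6 and 13.3 CPM) overlapped, with differences from LPS of -0.09 (95% interval -0.40 to 0.23) and -0.06 (-0.37 to 0.25). Il1rn +5.6 kb and Il1rn +10.3 kb likewise were not called in either comparison. Il1rn +15.9 kb moved in opposite directions. With LPS + (+)-JQ1 it held 5.00, 3.87 and 3.99 CPM, below the 10.3, 10.1 and 12.0 CPM of LPS (-1.35 ± 0.17, FDR = 3.7e-09), and with LPS + IL-10 it held 19.5, 13.4 and 18.6 CPM, above all LPS libraries (0.67 ± 0.15, FDR = 0.0011). Il1rn -20.6 kb was higher with LPS + IL-10 (7.72, 4.98 and 7.21 CPM against 4.78, 3.94 and 4.12 CPM, 0.63 ± 0.19, FDR = 0.016), and so was the sparse Il1rn -2.8 kb, named as the last of the 3 (1.28, FDR = 0.033). Without the replicates numbered 1, or without those numbered 3, 1 of these 3 higher calls was left.

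**Figure D4:**
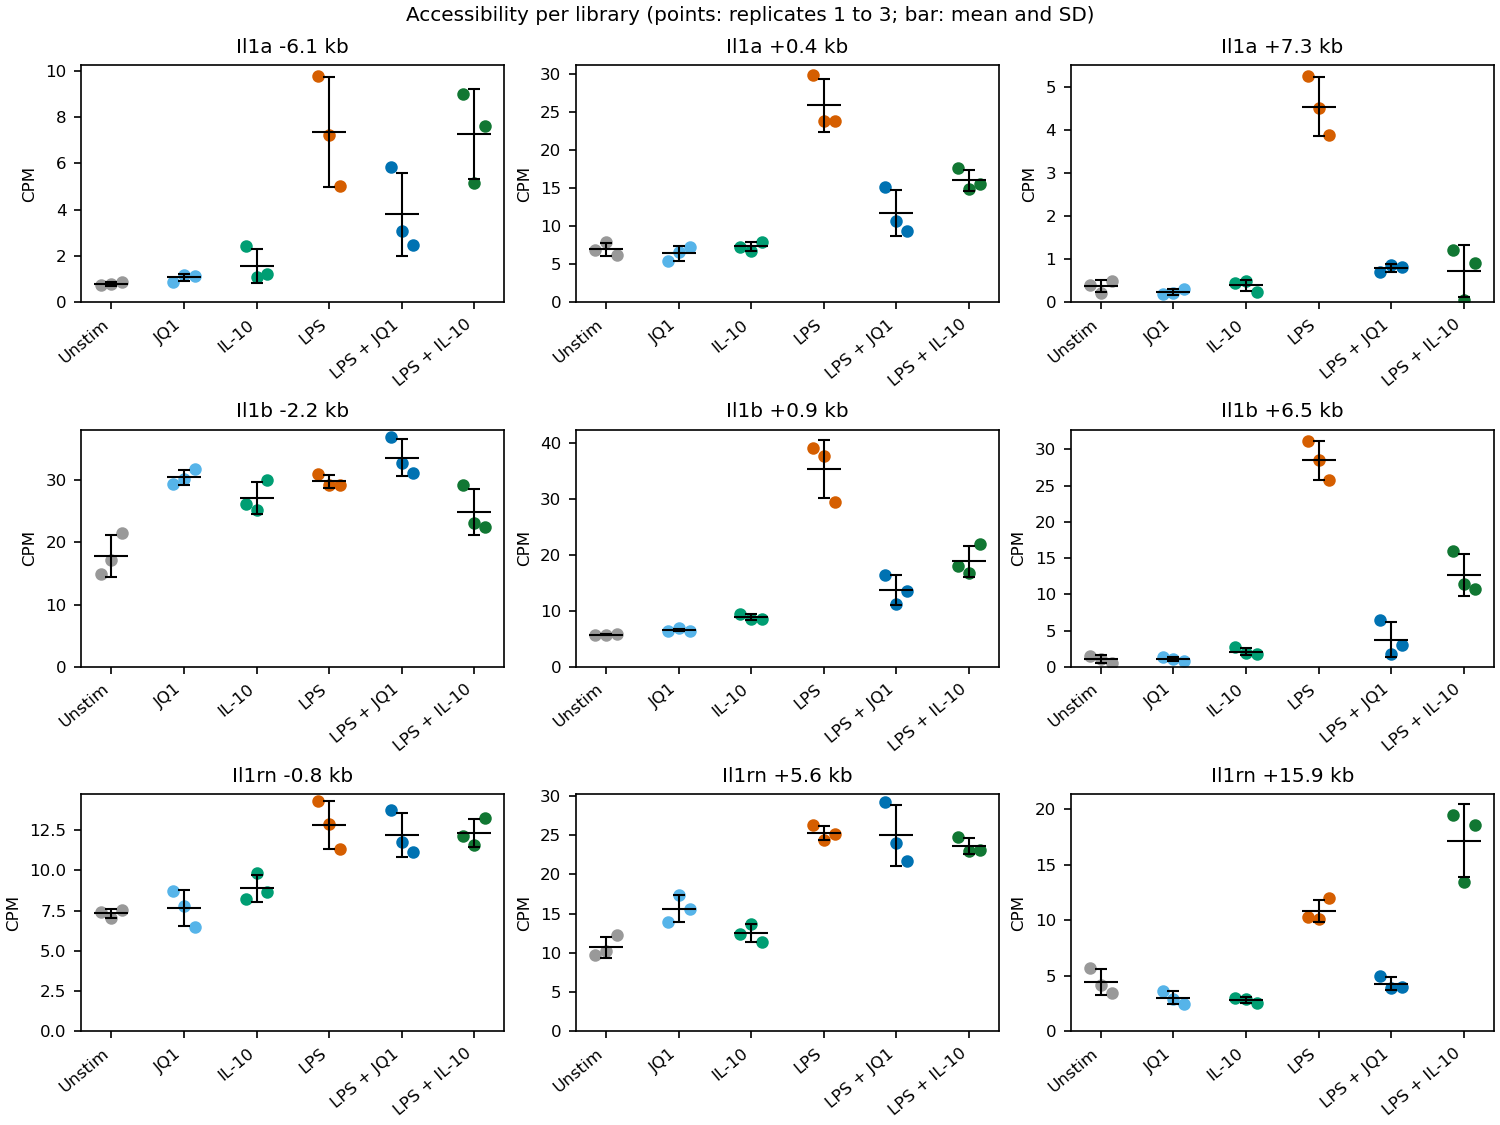
Accessibility (CPM, axes from 0) of 9 peaks in the 6 conditions; points are the 3 libraries and bars the mean and SD. At Il1b +6.5 kb LPS lies between 25.8 and 31.1 CPM and LPS + (+)-JQ1 between 1.80 and 6.46 CPM, while at Il1rn +15.9 kb LPS + IL-10 is the highest condition.

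Set against each other after LPS, (+)-JQ1 and IL-10 differed at 12 members, all lower with LPS + (+)-JQ1, against 4.67% of all peaks lower and 3.43% higher. No member was called higher by edgeR or DESeq2, and 4 had an unadjusted p under 0.05 in that direction. The largest difference was at Il1rn +15.9 kb (-2.02 ± 0.17, FDR = 1.7e-17), and 5 more peaks of that window were lower. At Il1b, the differences were -1.93 ± 0.21 at Il1b +8.0 kb, -1.84 ± 0.20 at Il1b +6.5 kb, -1.36 ± 0.21 at Il1b +3.1 kb and -1.30 ± 0.23 at Il1b +4.1 kb (-1.96 without replicate 1 of LPS + (+)-JQ1), with Il1b +9.3 kb, chosen after its value was seen, at -1.64. At Il1a only Il1a -6.1 kb was called (-1.01 ± 0.22, FDR = 0.00084), a call that DESeq2 did not make. Its LPS + (+)-JQ1 libraries (5.84, 3.06 and 2.48 CPM) overlapped those of LPS + IL-10 (8.99, 5.16 and 7.62 CPM). The differences at the Il1a and Il1b promoter peaks, -0.47 ± 0.15 (FDR = 0.027) and -0.47 ± 0.14 (FDR = 0.019), stayed under the fold limit. At Il1a +7.3 kb the difference was 0.09 with a 95% interval of -0.80 to 0.97, too wide to tell the treatments apart. Leaving out the replicates numbered 3 gave 7 lower and 2 higher calls.

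Neither treatment brought the windows back to the unstimulated level throughout. LPS + (+)-JQ1 was above Unstim at 25 of 65 members (10.0% of all peaks), comprising 10 at Il1a, 12 at Il1b and 3 at Il1rn, and LPS + IL-10 at 35 members (10.5% of all peaks), comprising 11, 15 and 9. No member was called lower than Unstim by edgeR or DESeq2 in either comparison (7.82% and 10.5% of all peaks), and 2 and 0 members had an unadjusted p under 0.05 in that direction. Total-count scaling changed the LPS + (+)-JQ1 counts to 13 higher and 2 lower (4.52% and 17.4% of all peaks under that scaling). Leaving out replicate 1 of that condition gave 2 lower calls (5.33% of all peaks). The direction held in both lanes at each of these called peaks, and in all 3 same-numbered pairs at 25 of 25 and 34 of 35. At the Il1b promoter peak LPS + (+)-JQ1 remained 1.25 above Unstim on the log2 scale (FDR = 2.7e-10), and at Il1b +8.0 kb 2.24 (FDR = 7.9e-08). At Il1a -10.1 kb, an upstream peak chosen after its values were seen, the means were 9.93 ± 3.98 CPM in Unstim, 30.4 ± 1.25 in LPS and 31.7 ± 3.55 in LPS + (+)-JQ1 (SD, n = 3).

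Without LPS the treatments changed few members, and these calls depended on the scaling. JQ1 against Unstim called 6 members higher (7.85% of all peaks) and 3 lower (3.15%), and IL10 called 11 higher (5.16%) and 2 lower (3.50%). Scaling by total counts moved the median of all peaks from -0.09 to -0.37 for JQ1 and from -0.05 to -0.26 for IL10. It turned these calls into 0 higher and 7 lower for JQ1, where 1.97% of all peaks were then higher and 14.1% lower. The turned balance for JQ1 was thus shared by all peaks. For IL10 it gave 4 and 4 (1.27% and 8.58% of all peaks). Loess scaling gave 1 and 0 for JQ1 (1.4% and 2.2% of all peaks), and 5 and 1 for IL10 (1.5% and 1.6%). Il1b -2.2 kb was higher with JQ1 (29.4, 30.2 and 31.7 CPM) and IL10 (26.2, 25.2 and 30.0 CPM) than in Unstim (14.9, 17.1 and 21.5 CPM), by 0.77 ± 0.14 and 0.60 ± 0.14, but by 0.49 and 0.40 with total counts and 0.28 and 0.23 with loess, below the fold limit, as was IL10 without replicate 1 of Unstim (0.49). IL10 alone raised Il1b +8.0 kb from 0.669, 0.165 and 0.657 CPM to 1.33, 1.46 and 1.83 CPM (1.65 ± 0.35, FDR = 0.00072), a call kept under both of these scalings and lost without the replicates numbered 2 (1.25). It raised the Il1b promoter peak to 9.44, 8.60 and 8.55 CPM (0.64 ± 0.16, FDR = 0.0047), a call lost under both scalings. Il1a +16.8 kb was lower with JQ1 (-1.35 ± 0.42) and IL10 (-1.49 ± 0.41), where replicate 1 of Unstim held 2.28 CPM and the other two 0.604 and 0.931. Without that library these were -0.67 and -0.81, neither called, and JQ1 had no lower call and IL10 7 higher and none lower.

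The interaction terms asked whether each treatment's difference was another with LPS than without it. For (+)-JQ1, 15 members had a lower difference under LPS (3.18% of all peaks) and none a higher one (0.649%), with 2 at an unadjusted p under 0.05 in the higher direction and none called by DESeq2, which gave no adjusted p to 29 of the 65. For IL-10, 15 were lower (5.90%) and 1 higher (2.01%). The largest terms for (+)-JQ1 were at Il1b +8.0 kb (-3.45) and Il1b +6.5 kb (-3.12), and for IL-10 at Il1a +7.3 kb (-2.64) and Il1b +8.0 kb (-2.54). The higher term was at Il1rn +15.9 kb (1.32), which was lower with IL-10 alone (3.00, 2.87 and 2.54 CPM) than in Unstim, a call lost without replicate 1 of Unstim (-0.45), and higher after LPS. Without the replicates numbered 2 the lower counts were 4 and 5, and the IL-10 term at Il1a +7.3 kb was no longer called (-1.68).

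The rule for named peaks left 45 of the 65. LPS raised 23 of these (11.7% of all peaks), with log2 fold-changes over all 45 from -0.82 to 2.57, LPS + (+)-JQ1 lowered 9 relative to LPS (3.48% of all peaks), and LPS + IL-10 lowered 7 (4.52%) and raised 1 (4.26%). Within the Il1a body, Il1a +9.8 kb, which reaches the gene's 3′ UTR and was chosen after its values were seen, averaged 2.06 ± 0.17 CPM in Unstim, 11.1 ± 1.69 in LPS, 2.80 ± 0.17 in LPS + (+)-JQ1 and 2.62 ± 0.49 in LPS + IL-10 (SD, n = 3).

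Across the 18 libraries, the promoter peaks of Il1a and Il1b followed each other with a Pearson r of 0.961, and that of Il1rn followed Il1b (0.886) more closely than Il1a (0.828). These values describe log2 CPM in libraries that share conditions. Among the main promoter peaks of 12972 genes, those most like Il1a's were at Olfr222 (0.979), Adora2a (0.970), Ccnd2 (0.967), Col9a3 (0.966) and Heg1 (0.965). Those most like Il1b's were at Kcnh4 (0.955), Il27 (0.953), Tex12 (0.950), Olfr222 (0.949) and Rtn2 (0.948). For Il1rn they were at C1s and Gm5077, which share 1 peak (0.959), Chi3l1 (0.951), Txlnb (0.944) and Aanat (0.943). The Olfr222 promoter peak averaged 10.2 CPM in Unstim, 51.7 in LPS, 15.7 in LPS + (+)-JQ1 and 23.7 in LPS + IL-10, whereas that of C1s averaged 7.42, 21.2, 17.5 and 19.4. The order is not firm, since with Spearman's rho 3, 1 and 3 of the 5 named remained in the top 5 for Il1a, Il1b and Il1rn.

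Other genes of the pathway were read in the same windows, leaving out member peaks. Of 40 peaks around 7 further IL-1 family ligands, LPS raised 18 (45%, against 11.7% of all peaks). Most of these were at Il18, which encodes the other caspase-1-dependent cytokine of the family, with 14 of 20 peaks higher with LPS, 9 lower with LPS + (+)-JQ1 than LPS and 10 lower with LPS + IL-10. Over the 40 ligand peaks, 9 were lower with LPS + (+)-JQ1 (22.5%, against 3.48% of all peaks). With LPS + IL-10, 11 were lower (27.5%, against 4.52%) and 4 higher (10%, against 4.26%). Of 105 peaks around 11 receptors and decoys, 11 rose (10.5%) and 8 fell (7.62%) with LPS, near the 11.7% and 10.2% of all peaks. At Il1r1, the signalling receptor, 4 of 23 rose and 1 fell, and at Il1r2, the decoy receptor, 1 of 7 fell. LPS + IL-10 was above LPS at 10 of the 105 (9.52%, against 4.26% of all peaks) and below at 1 (0.952%, against 4.52%). Of 338 peaks around 16 processing, secretion and signalling genes, LPS raised 91 (26.9%, against 11.7% of all peaks) and lowered 30 (8.88%, near the 10.2% of all peaks).

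Within that last list the genes differed. Nlrp3, the sensor of the inflammasome that activates caspase-1, had 19 of 28 peaks higher with LPS. Relative to LPS, 13 of the 28 were lower with LPS + (+)-JQ1 (3.48% of all peaks) and 12 with LPS + IL-10 (4.52%). Over the whole list these counts were 20 of 338 (5.92%) and 27 of 338 (7.99%), so most of the (+)-JQ1 calls were at Nlrp3. LPS + IL-10 was above LPS at 29 of the 338 (8.58%, against 4.26% of all peaks), and 18 of these 29 were at Irak3. Irak2, a kinase of the receptor complex, had 20 of 30 peaks higher with LPS, 7 lower with LPS + IL-10 and 1 higher with LPS + (+)-JQ1. Casp1 had 8 of 19 higher with LPS. Irak3, a negative regulator of IL-1 receptor signalling, had 13 of 48 higher with LPS, and LPS + IL-10 was above LPS at 18 of the 48. At Tab1, an adaptor of the kinase TAK1, 14 of 23 peaks fell with LPS. Medians over the 3 lists for LPS were 0.72, -0.05 and 0.28, against -0.03 over all peaks.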

How the data were processed

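The deposited values were raw counts per peak, made by the authors, in a table of 194284 peaks (mm9). The authors aligned ATAC-seq reads with bowtie2 in the PEPATAC pipeline, kept uniquely mapped reads and called peaks in each library with MACS2; the counting tool is not given in the sources used here, and versions of Bowtie2, MACS2 and ChIPseeker are not listed in the submitters' processing notes. Whether peak starts count from 0 or 1 is not stated, so peak coordinates stand as in the file. A further 6 columns matched no sample and were not used. The 18 libraries (6 conditions of 3, from 3 mice) were grouped by their labels. Replicate 1 was sequenced in lane 5, replicate 3 in lane 6, and replicate 2 in lane 5 without LPS and lane 6 with LPS.

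Counts were fitted in edgeR 4.0.16 (R 4.3.3) by quasi-likelihood with TMM scaling and all 18 libraries in one fit without a block, after filterByExpr (194230 peaks and all 65 members kept, 12 residual degrees of freedom). FDR is the Benjamini-Hochberg adjusted p over all tested peaks, a call needs FDR under 0.05 and an absolute log2 fold-change above 0.5, and 95% intervals come from the SE and those degrees of freedom. Fitted log2 fold-changes of low peaks depend on the prior count. The main test of LPS vs Unstim was run on simulated counts with a log2 change of 1.5 at 200 peaks. It called 140 of these (70%), with 12 false calls, so a peak not called may still have changed. The simulation changed 200 of 193906 peaks and took its spread from the 3 Unstim libraries. In the data, 22793 peaks were called higher and 19801 lower with LPS, which gives another FDR cutoff. The simulated shares are therefore not the recovery or error of the test on the data, which was not measured. The alternatives were DESeq2 1.42.0, its size factors, total counts, loess offsets, other filters, a block for the replicate number, a lane term, fits within pairs of groups, FDR under 0.01, windows around the TSS, and leaving out each replicate number; leaving out Unstim replicate 1 or LPS + (+)-JQ1 replicate 1 was chosen after seeing the data. An adjusted p that DESeq2 gave as NA was kept as NA. The design text calls the samples matched, but the sources used here do not say that a replicate number marks the same mouse in each condition, so the numbers were not taken to pair the libraries. The precision of a level follows from its counts, and intervals cover the fitted spread between 3 libraries a condition.

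Members, gene lists and markers were chosen with earlier results of these data known. The peaks named were those over a member's TSS, the peak of highest mean CPM of each gene, and, among peaks with at least 50 mean normalized counts in 1 condition, the largest called changes per gene (up to 3 for LPS, up to 2 for each other main comparison). Marker genes were read at peaks from 1000 bases before to 100 after a TSS, since at Csf1r and Cd68 no peak covered the TSS itself. Promoter sequence stops at the TSS. Similar promoters needed a mean of at least 2 CPM. Over the Il10 gene body, 3 peaks together held 175 to 620 counts per library.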

Additional observations from a re-analysis of the deposited data

Results flagged for a closer look

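These values are interaction terms, the log2 difference between a treatment's change with LPS and its change without LPS, which passed FDR under 0.05 at named peaks in edgeR's fit. For (+)-JQ1 the terms at Il1a were -1.83 at Il1a +16.8 kb, -1.05 at Il1a +13.1 kb, -2.86 at Il1a +11.3 kb, -1.05 at Il1a +0.4 kb and -1.46 at Il1a -6.1 kb. At Il1b they were -0.75 at Il1b +10.6 kb, -3.45 at Il1b +8.0 kb, -3.12 at Il1b +6.5 kb, -1.73 at Il1b +4.1 kb, -1.48 at Il1b +3.1 kb and -1.58 at Il1b +0.9 kb. For IL-10 the terms were 1.32 at Il1rn +15.9 kb, -1.15 at Il1a +13.1 kb, -1.89 at Il1a +11.3 kb, -2.64 at Il1a +7.3 kb and -0.77 at Il1a +0.4 kb. At Il1b they were -2.54 at Il1b +8.0 kb, -2.23 at Il1b +6.5 kb, -1.55 at Il1b +0.9 kb and -0.86 at Il1b -2.2 kb. The terms for (+)-JQ1 at Il1a +16.8 kb, Il1a -6.1 kb and Il1b +10.6 kb, and for IL-10 at Il1a +0.4 kb, lost their call with total-count scaling, where they were -1.53, -1.19, -0.49 and -0.49, and when the replicates of 1 number were left out (any of the 3 numbers, or 1 or 2 at Il1b +10.6 kb). Without 1 library, the (+)-JQ1 terms were -2.50 at Il1a +16.8 kb (without Unstim replicate 1) and -2.39 at Il1b +4.1 kb (without LPS + (+)-JQ1 replicate 1). The calls at Il1a -6.1 kb and Il1b +10.6 kb (-0.52) were lost without Unstim replicate 1, and that at Il1b +10.6 kb also without LPS + (+)-JQ1 replicate 1 (-0.77).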

How the results depend on the processing

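No log2 fold-change of a named, called peak and no log2 ratio of a summed window changed sign under the alternatives run. The balance of higher and lower calls for JQ1 alone did turn with total-count scaling, as it did over all peaks (1.97% higher and 14.1% lower). The higher calls for LPS, and the lower calls after either treatment relative to LPS, moved by more than 1.5 times only when at least 10 counts were asked of every library, which left 37 members to test. That filter gave 26 higher for LPS, 10 lower for LPS + (+)-JQ1 and 7 lower for LPS + IL-10 against LPS, 1 lower for JQ1, 1 lower for IL10 and 9 lower for the IL-10 interaction. Total-count scaling gave 1 lower for LPS, 0 higher and 7 lower for JQ1, 4 and 4 for IL10, 13 higher and 2 lower for LPS + (+)-JQ1 against Unstim, 9 lower for the (+)-JQ1 interaction and 2 higher for the IL-10 interaction. Of all peaks, that scaling called 19.3% lower for LPS, and 4.52% higher and 17.4% lower for LPS + (+)-JQ1 against Unstim. It called 0.947% lower for the (+)-JQ1 interaction and 6.28% higher for the IL-10 interaction. With it the LPS log2 ratios of the summed windows were 1.35 (Il1a), 1.48 (Il1b) and 0.404 (Il1rn), and the median of all peaks for LPS was -0.26. Loess offsets gave 1 higher and 0 lower for JQ1 and 5 and 1 for IL10. A fit of only the groups compared gave 1 lower for JQ1. FDR under 0.01 gave 0 lower for JQ1, 6 higher and 1 lower for IL10, 1 higher for LPS + IL-10 against LPS and 8 lower for the (+)-JQ1 interaction. The replicate block, pairing libraries by number, gave 5 lower for JQ1 (3 without it); against the 208 calls over 10 comparisons it lost none and gained 3. Deviations from the group means correlated at a mean r of 0.0057 over 45 same-number pairs (-0.082 to 0.064) and -0.0029 over 90 others. Deviations cancel within a group, so the second mean is tied to the first and is no separate reference for it. Without Unstim replicate 1, JQ1 had 0 lower and IL10 7 higher and 0 lower, and the IL-10 interaction had 15 lower. Without LPS + (+)-JQ1 replicate 1, that condition was lower than Unstim at 2 members and lower than LPS + IL-10 at 15, and its interaction had 14 lower. The median over peaks in place of the sum gave -0.978 for Il1a with LPS + (+)-JQ1 against LPS, 1.06, -0.236 and -0.239 for Il1b with LPS, LPS + (+)-JQ1 and LPS + IL-10, and 0.378 for Il1rn with LPS.

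Leaving out each replicate number in turn, which leaves fewer samples, gave 2 to 6 higher and 1 lower for JQ1, 1 to 9 higher and 0 to 2 lower for IL10, 1 to 2 higher for LPS + IL-10 against LPS, 0 to 1 lower for LPS + (+)-JQ1 against Unstim, 0 to 2 higher and 7 to 13 lower for LPS + (+)-JQ1 against LPS + IL-10, 4 to 12 lower for the (+)-JQ1 interaction and 5 to 13 lower for the IL-10 interaction. It gave 35 to 38 higher for LPS, 18 to 19 lower for LPS + (+)-JQ1 and 16 to 18 lower for LPS + IL-10 against LPS. Over the named peaks, 1385 of 1524 values kept their side of the threshold and 139 lost it. The cause of these shifts was not tested.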

Other observations

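Between the windows of Il1a and Il1b, 4597 bases apart, lay 1 further peak, at chr2:129163795-129164617. It averaged 5.67 ± 1.51 CPM in Unstim, 10.4 ± 0.16 in JQ1, 9.95 ± 2.19 in IL10, 29.8 ± 3.51 in LPS, 29.6 ± 5.21 in LPS + (+)-JQ1 and 20.3 ± 3.08 in LPS + IL-10 (SD, n = 3). In edgeR's fit LPS raised it by 2.38 ± 0.16 on the log2 scale (FDR = 2.2e-24). LPS + (+)-JQ1 differed from LPS by -0.02 ± 0.14 (FDR = 0.97), and LPS + IL-10 fell by 0.56 ± 0.14 (FDR = 0.0040).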
